A study of Mus musculus with 12 samples.

Results

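The genes described here were 9 feedback brakes on ERK signalling, chosen by name: the MAP kinase phosphatases Dusp1, Dusp4, Dusp5 and Dusp6, the Sprouty genes Spry1, Spry2 and Spry4, and the Spred genes Spred1 and Spred2. They were chosen with earlier results of these data known. Counts of called members beside the share of all genes therefore describe the members and do not test them as a set. Each has a row among the 23893 gene symbols of the counts table. The data were RNA-seq read counts from 12 mouse cortical neuron cultures, 3 in each of 4 groups, and the comparisons ask how transcript levels respond to topotecan, to deletion of Top1 and to both together. Cultures came from embryos of day 13.5 to 15.5, with the strain given as C57BL6 for each sample and as C57BL6/J in the growth protocol. The study describes all of them as Top1 fl/fl, with loxP sites around exon 3, whereas the growth protocol in the labels names wild-type females.

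At 3 days in vitro (DIV) all cultures received a lentivirus with the CaMKIIα promoter, which is active in neurons. The WT groups received tdTomato alone, and the Top1 cKO groups received tdTomato-P2A-CRE, CRE being the recombinase that deletes the floxed Top1 gene. At DIV 15, WT-Veh and Top1 cKO-Veh cultures were given vehicle (0.003% DMSO), and WT-Topot and Top1 cKO-Topot cultures were given 300 nM topotecan in the same vehicle. All were harvested 3 days later. Topotecan is a drug that holds the enzyme TOP1 on the DNA strand it has cut. By the labels the virus reached around 85 to 90% of cells, and expression from its promoter was limited to neurons, so that Top1 cKO is not a deletion in every cell of a culture. Libraries held 1730164 to 4583777 counts. Top1 itself stood at 117 to 163 CPM (counts scaled to library size, per 1000000) in the 6 tdTomato libraries and at 27.1 to 44.0 CPM in the 6 CRE libraries, with no overlap.

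ERK is the last kinase of the cascade that runs from receptor tyrosine kinases through RAS and RAF, and in neurons it is also switched on by synaptic activity and calcium entry. Active ERK induces transcription of its own inhibitors, which makes these genes a customary readout of the pathway. The dual-specificity phosphatases (DUSPs) remove phosphate from ERK and related kinases, Sprouty proteins act between the receptor and RAF, and Spred proteins bring the RAS inhibitor neurofibromin to the membrane. Transcript counts do not measure ERK phosphorylation, and in bulk RNA fewer cells of a type and less RNA per cell cannot be told apart.

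The 250 bases upstream of the start site are shown for 3 members, Dusp1 and Dusp5, whose RNA fell under topotecan, and Spry1, whose RNA did not pass the test in any comparison. The sequences are from RefSeq (GRCm38.p6), run 5′ to 3′ on the strand of the gene, and lie at chr17:26508473-26508722 (minus strand), chr19:53528895-53529144 (plus strand) and chr3:37639697-37639946 (plus strand). Capitals mark a cyclic AMP response element (cAMP element, TGACGTCA), its shorter core (TGACG) or a CArG box, the site of serum response factor.
Dusp1: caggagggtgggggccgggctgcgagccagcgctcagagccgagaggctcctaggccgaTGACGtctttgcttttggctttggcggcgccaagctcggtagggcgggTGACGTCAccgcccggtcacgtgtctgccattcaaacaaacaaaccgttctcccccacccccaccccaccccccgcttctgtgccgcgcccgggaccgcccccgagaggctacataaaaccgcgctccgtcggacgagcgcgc
Dusp5: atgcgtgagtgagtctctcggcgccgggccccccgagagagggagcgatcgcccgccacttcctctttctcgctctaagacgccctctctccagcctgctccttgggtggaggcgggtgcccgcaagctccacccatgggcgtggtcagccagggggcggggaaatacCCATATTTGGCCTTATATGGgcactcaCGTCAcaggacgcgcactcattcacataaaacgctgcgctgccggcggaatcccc
Spry1: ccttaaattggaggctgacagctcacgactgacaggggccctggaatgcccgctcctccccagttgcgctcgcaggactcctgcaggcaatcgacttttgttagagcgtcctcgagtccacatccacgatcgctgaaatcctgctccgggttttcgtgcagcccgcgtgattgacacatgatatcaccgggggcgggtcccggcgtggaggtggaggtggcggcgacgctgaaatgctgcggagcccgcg

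The full cAMP element of Dusp1 lay 143 to 136 bases before the start, and a further core lay 191 to 187 bases before it. The pair of CArG boxes of Dusp5 lay side by side, 82 to 73 and 72 to 63 bases before the start. Among 32851 RefSeq windows of this length, searched on both strands, a cAMP element was found in 1.55%, the core in 17.8% (each cAMP element also holds the core) and a CArG box in 1.47%. Of the 7 members with a window, 1 held a cAMP element (Dusp1), 3 the core (Dusp1, Dusp5 and Spred2) and 1 a CArG box (Dusp5). An AP-1 site (TGANTCA, in 6.75% of windows) and an ETS site (CCGGAAGT, in 2.88%) were found in 0 of the 7. Dusp6 and Spry2, whose RNA also fell under topotecan, held none of these motifs. Spred2, which held the core, did not pass the main test of topotecan in WT cultures described below. These motifs were chosen after the sequences had been seen, and a match is a description of letters only.

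Members differed widely in level. Per kilobase of exon in the GENCODE annotation, WT-Veh cultures had the highest mean for Spry2 (64.8 ± 16.3 CPM per kb, SD, n = 3) and Dusp6 (64.7 ± 26.5), followed by Spred1 (43.0 ± 7.40), Dusp4 (33.6 ± 13.9), Spred2 (23.5 ± 9.71), Spry4 (15.7 ± 6.20), Dusp1 (14.8 ± 4.42), Spry1 (6.86 ± 0.64) and Dusp5 (4.14 ± 1.35). Neighbours in this order overlapped in their ranges over libraries down to Dusp1, while Spry1 lay below Dusp1 and Dusp5 below Spry1 in every WT-Veh library. The order of means was the same in Top1 cKO-Veh and Top1 cKO-Topot cultures. In WT-Topot cultures it was not: Spred1 (29.8 ± 5.84) stood above Dusp6 (27.0 ± 6.44), Spred2 (14.1 ± 2.60) above Dusp4 (9.38 ± 2.03), and Spry1 (6.90 ± 0.92 CPM per kb) above Dusp1 (4.36 ± 0.21 CPM per kb). Of these 3 changes in order, the ranges of Spred2 and Dusp4, and of Spry1 and Dusp1, did not overlap in WT-Topot libraries, whereas those of Spred1 and Dusp6 did.

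To determine how topotecan changed the feedback genes where TOP1 was present, WT-Topot cultures were compared with WT-Veh cultures. Dusp1, Dusp4, Dusp5, Dusp6 and Spry2 fell, by 2.12-fold (Spry2) to 4.30-fold (Dusp5). Spry4, Spred1 and Spred2 had lower means without passing the threshold, and Spry1 had nearly the same level in both groups. Thus 5 of 9 members were called lower at an FDR of 0.01 (edgeR quasi-likelihood test, adjusted over all genes), where 2.04% of all genes tested were called lower, or 3.56% of those that averaged 1 CPM or more. The median log2 fold change of the 9 members was −1.11, beside 0.03 over 13720 genes. In 6 of the 9 members every WT-Topot library lay below every WT-Veh library, as in 13.2% of the 13720 genes.

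The replicate numbers of the labels pair the cultures across groups, and with the number as a block 8 of 9 members were called lower (5.0% of all genes), all but Spry1. All 9 members were highest, among the WT-Veh libraries, in replicate 2. Without that library 2 of 9 were called lower, Dusp1 and Dusp4, where 1.82% of all genes were. Without WT-Topot replicate 2 the same 2 members were called, where 1.94% of all genes were. The count of members thus fell from 5 to 2 while the share of all genes stayed near the 2.04% of the full comparison. In that WT-Veh library the summed level of 28 ERK output genes was also the highest of its group, at 4715 CPM beside 3016 and 2368 CPM. So were the sums of receptors and ligands (3170 CPM), the RAS-ERK cascade (3938), its other brakes (2849) and further phosphatase and Sprouty family genes (545). These sums exceeded the next library by smaller proportions than the output genes did, and that of the other brakes was nearly level with replicate 1. Top1 was highest in replicate 2 as well (163 CPM), whereas astrocyte markers were highest in replicate 1. Neuron markers were highest in replicate 3, nearly level with replicate 2. Why WT-Veh replicate 2 stood out was not tested.

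**Figure D1:**
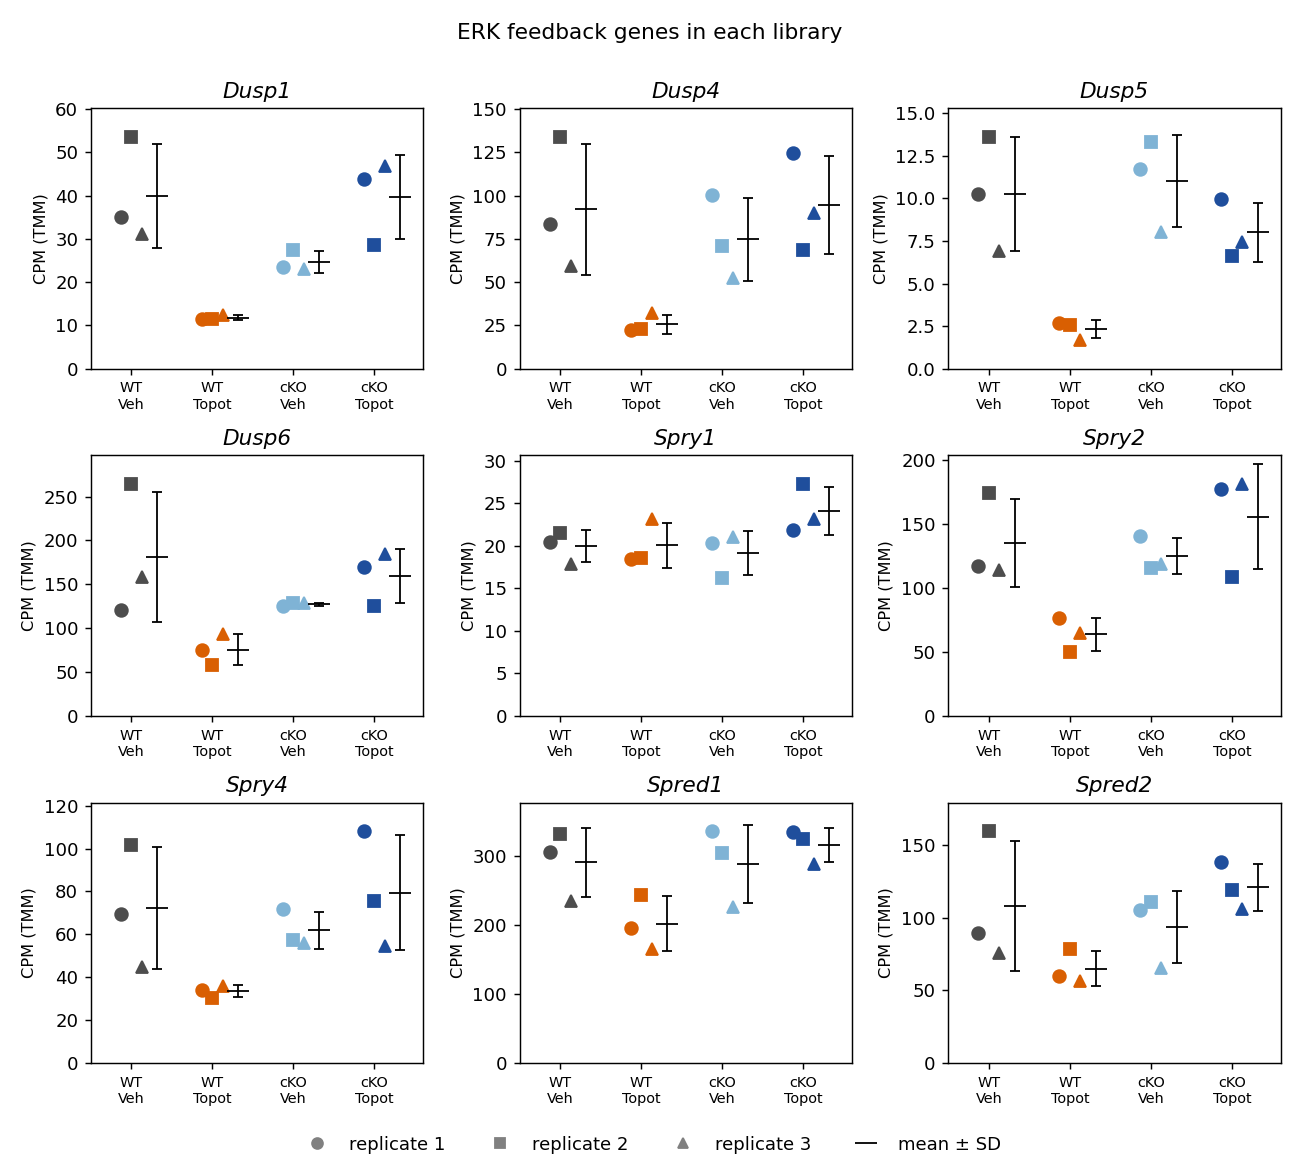
CPM scaled by TMM (vertical axes, each from 0) of the 9 genes in the 12 libraries, by group (horizontal axes), with symbols for replicate numbers and the mean ± SD of 3 cultures beside them. WT-Topot libraries lie below all WT-Veh libraries for Dusp1, Dusp4, Dusp5, Dusp6, Spry2 and Spry4, and replicate 2 is the highest WT-Veh library in all 9 panels.

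The nuclear phosphatases come first. Dusp1 (MKP-1) is an immediate early gene whose product acts on p38 and JNK as well as ERK. The gene lies at chr17:26642535-26645464 on mm9 (minus strand, 2.93 kb). Its level was 35.1, 53.5 and 31.1 CPM in WT-Veh replicates 1, 2 and 3 and 11.4, 11.4 and 12.4 CPM in WT-Topot replicates 1, 2 and 3. The WT-Topot libraries were close together and far below the lowest WT-Veh library. The log2 fold change was −1.76 ± 0.28 (SE), with an adjusted p of 0.000397.

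Dusp4 (MKP-2, chr8:35870351-35882948, plus strand), a close relative of Dusp1, had 83.4, 134 and 59.3 CPM in WT-Veh and 22.1, 22.9 and 32.1 CPM in WT-Topot. The vehicle libraries spread over a wide range, and all of them stood above the drug-treated libraries. The log2 fold change was −1.85 ± 0.27 (adjusted p = 0.000178).

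Dusp5 (chr19:53603599-53616921, plus strand), a nuclear phosphatase selective for ERK, was the rarest of the 9 transcripts. It had 10.2, 13.6 and 6.91 CPM in WT-Veh and 2.68, 2.58 and 1.71 CPM in WT-Topot. The groups did not overlap, but the drug-treated libraries rest on 8, 9 and 4 reads. Its log2 fold change was −2.11 ± 0.45 (adjusted p = 0.00596), with a 95% confidence interval of −3.04 to −1.17, the widest of the 9 genes.

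Dusp6 (MKP-3, chr10:98725865-98730122, plus strand), the cytoplasmic phosphatase selective for ERK, had 121, 264 and 158 CPM in WT-Veh and 74.7, 57.8 and 93.8 CPM in WT-Topot. WT-Veh replicate 2 stood well above the other libraries, and the groups did not overlap. The log2 fold change was −1.26 ± 0.26 (adjusted p = 0.00463). Without WT-Veh replicate 2 the adjusted p rose to 0.0236 for Dusp6 and to 0.0331 for Dusp5, above the threshold.

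Of the Sprouty genes, Spry2 (chr14:106291166-106296036, minus strand) fell in a similar measure. It had 117, 174 and 114 CPM in WT-Veh and 76.4, 50.1 and 64.7 CPM in WT-Topot, without overlap. The log2 fold change was −1.08 ± 0.22 (adjusted p = 0.00472), and the adjusted p was 0.0243 without WT-Topot replicate 2.

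Spry4 (chr18:38745922-38760922, minus strand) was at 69.6, 102 and 44.9 CPM in WT-Veh and 34.2, 30.3 and 36.0 CPM in WT-Topot. Its libraries did not overlap either, but the log2 fold change of −1.11 ± 0.26 missed the threshold (adjusted p = 0.0123), and passed it with the replicate block (adjusted p = 1.74e-06).

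Spry1 (chr3:37538869-37543520, plus strand) was at 20.5, 21.5 and 17.9 CPM in WT-Veh and 18.4, 18.6 and 23.1 CPM in WT-Topot. The groups overlapped, with a log2 fold change of 0.00 ± 0.27 and a 95% confidence interval of −0.56 to 0.57. This interval lies above the estimates of the other members except Spred1. Differences between members were not tested.

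The Spred genes had the smallest differences among the members with lower means. Spred1 (chr2:116947110-117008015, plus strand) had 306, 333 and 236 CPM in WT-Veh and 197, 244 and 166 CPM in WT-Topot. The log2 fold change was −0.52 ± 0.19 (adjusted p = 0.169), and the groups overlapped by 1 library on each side.

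Spred2 (chr11:19824378-19924029, plus strand), the longest of the 9 genes, had 89.5, 160 and 76.0 CPM in WT-Veh and 59.7, 78.7 and 56.5 CPM in WT-Topot. Its log2 fold change was −0.73 ± 0.25 (adjusted p = 0.121). Within each replicate number both Spred genes were lower with topotecan in 3 of 3 pairs. The share of all genes that agree in 3 of 3 pairs was not computed, here or for the pairs described below. With the replicate block the adjusted p was 5.68e-04 for Spred1 and 2.78e-04 for Spred2.

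**Figure D2:**
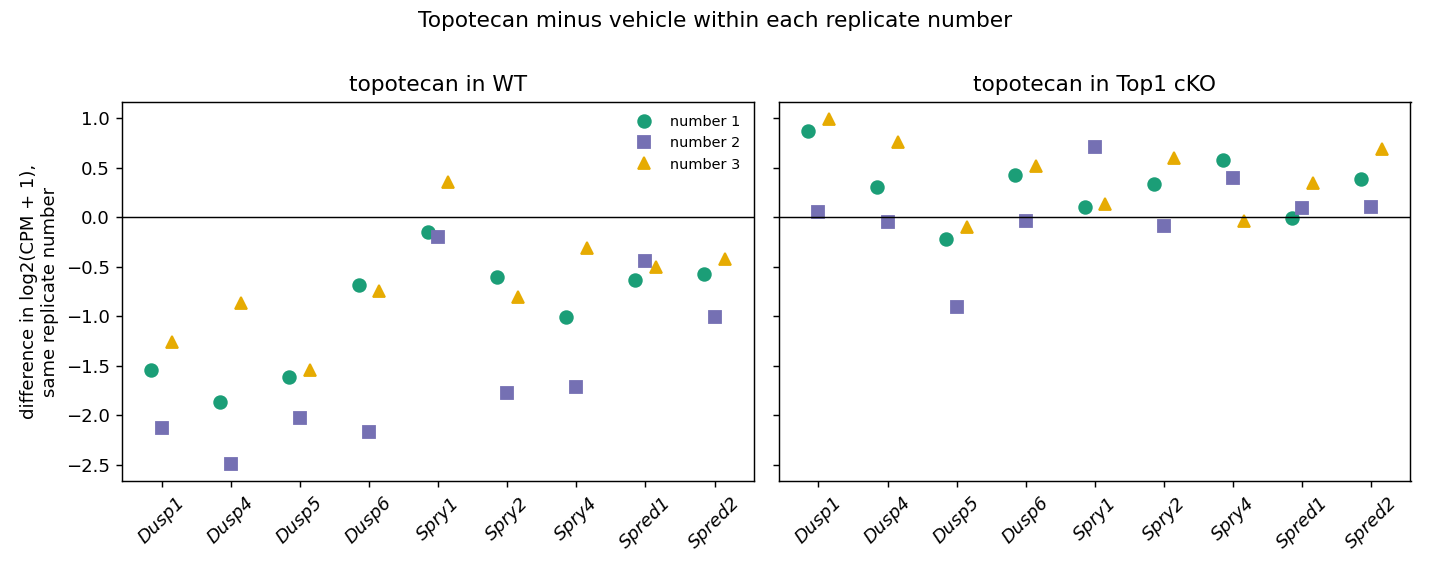
Topotecan minus vehicle in log2(CPM + 1) (vertical axes) between libraries of the same replicate number, for WT cultures (left) and Top1 cKO cultures (right), with a symbol for each number. In WT cultures 8 of 9 genes were lower in 3 of 3 pairs, and Spry1 in 2 of 3. The share of all genes with such agreement was not computed.

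The effect of Top1 deletion without drug was examined next. In Top1 cKO-Veh against WT-Veh cultures 0 of 9 members were called (0.172% of all genes by edgeR), also by edgeR's exact test (0 of 9, 0.665%) and DESeq2 (0 of 9, 1.95%). At an unadjusted p of 0.05, 1 member passed, Dusp1 (8.72% of all genes). Dusp1 had 23.5, 27.5 and 23.0 CPM in Top1 cKO-Veh replicates, each below the lowest WT-Veh library (as in 10.3% of the 13720 genes), with a log2 fold change of −0.69 ± 0.26 (adjusted p = 0.375). With the replicate block it was called (adjusted p = 0.00982), as the only member (5.56% of all genes).

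The other 8 members overlapped between Top1 cKO-Veh and WT-Veh. Dusp6 was at 126, 128 and 128 CPM in Top1 cKO-Veh, within the WT-Veh range, and had a log2 fold change of −0.51 ± 0.24 (adjusted p = 0.586). The log2 fold changes of the other members ran from −0.30 (Dusp4) to 0.11 (Dusp5). Their 95% confidence intervals included 0 and reached from −0.91 to 0.87, so that a change as large as that of Dusp4 or Dusp5 under topotecan was outside the interval for both genes.

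**Figure D3:**
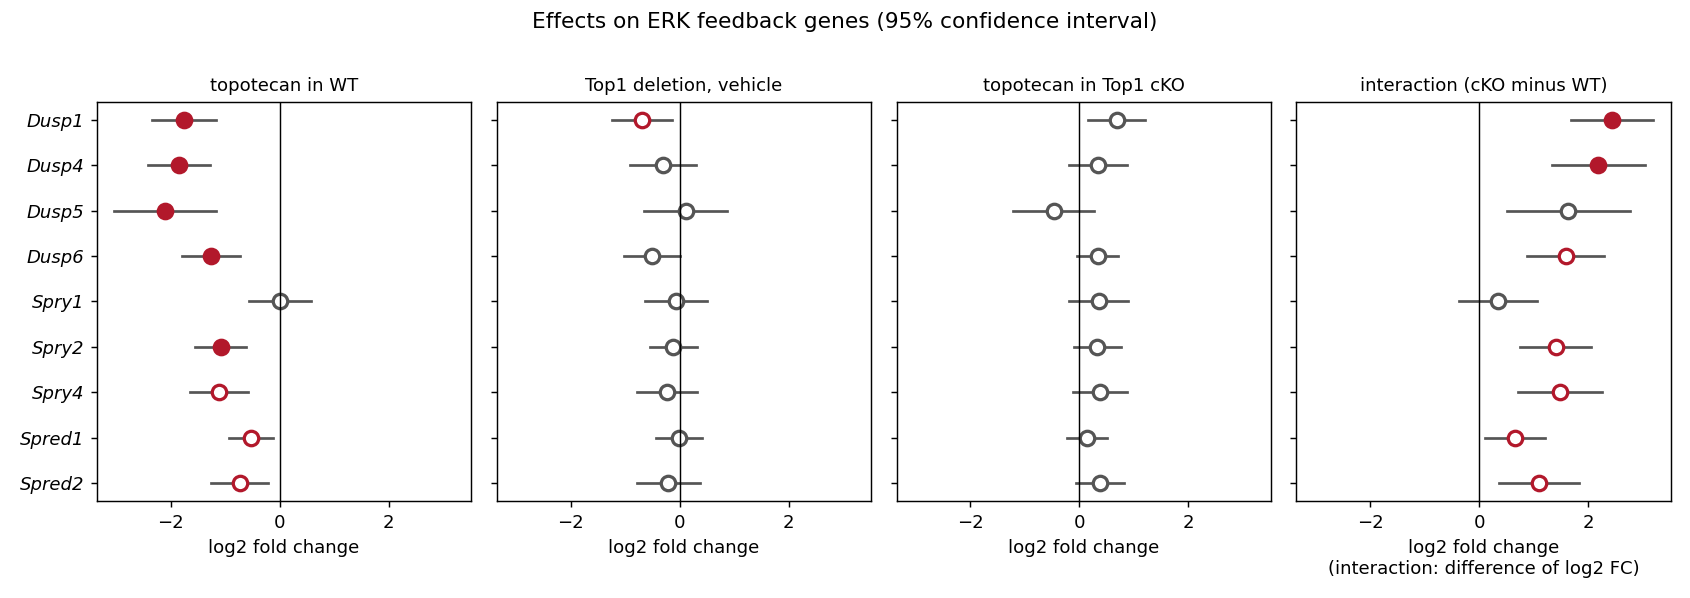
Log2 fold changes (horizontal axes) of the 9 genes with 95% confidence intervals for topotecan in WT, Top1 deletion, topotecan in Top1 cKO, and the difference of the topotecan effects. Filled points passed an FDR of 0.01, and red outlines passed it with the replicate block. Points of the first panel lie below 0 for all genes but Spry1, and the differences of the topotecan effects lie above 0 for all 9.

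Topotecan was then examined in cultures that had lost most of their Top1. In Top1 cKO-Topot against Top1 cKO-Veh cultures 0 of 9 members were called (0.00837% of all genes by edgeR), and 0 with the replicate block (2.59%), 0 by the exact test (0.167%) and 0 of 8 tested by DESeq2 (0.636%). Point estimates were above 0 for 8 of 9 members, with a median log2 fold change of 0.34 beside 0.00 over all genes. At an unadjusted p of 0.05 Dusp1 alone passed (4.32% of all genes).

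Dusp1 was at 43.8, 28.6 and 46.8 CPM in Top1 cKO-Topot replicates, each above the highest Top1 cKO-Veh library, with a log2 fold change of 0.68 ± 0.25 (adjusted p = 0.830). Spry1 likewise did not overlap (2 of 9 members with all libraries higher, beside 5.17% of the 13720 genes), with 21.9, 27.2 and 23.2 CPM with topotecan and 20.3, 16.3 and 21.0 CPM with vehicle, and a log2 fold change of 0.35 ± 0.26. Dusp5, the exception in direction, had 9.96, 6.64 and 7.43 CPM with topotecan and 11.7, 13.3 and 8.02 CPM with vehicle. Its log2 fold change was −0.47 ± 0.35, and it was lower in 3 of 3 replicate pairs.

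Dusp4 was at 125, 68.7 and 90.1 CPM in Top1 cKO-Topot and at 101, 71.0 and 52.6 CPM in Top1 cKO-Veh. Spry2 was at 178, 109 and 181 CPM in Top1 cKO-Topot and at 141, 115 and 119 CPM in Top1 cKO-Veh. Both pairs of groups overlapped, and the 95% confidence intervals of the log2 fold changes, −0.19 to 0.88 and −0.10 to 0.76, lie above the log2 fold changes of −1.85 for Dusp4 and −1.08 for Spry2 between WT-Topot and WT-Veh.

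Dusp6 was at 170, 125 and 184 CPM in Top1 cKO-Topot, with replicates 1 and 3 above and replicate 2 below all 3 Top1 cKO-Veh libraries. Spry4 was at 108, 75.7 and 54.6 CPM with topotecan and at 72.0, 57.2 and 56.1 CPM with vehicle, with the lowest library of all 6 in the drug-treated group. Spred1 ranged from 289 to 335 CPM with topotecan and from 226 to 336 CPM with vehicle. Spred2 ranged from 106 to 138 CPM and from 65.1 to 111 CPM, and was higher with topotecan in 3 of 3 replicate pairs. The log2 fold changes of these 4 genes were 0.34 ± 0.18, 0.38 ± 0.24, 0.14 ± 0.17 and 0.37 ± 0.21 in this order, and none passed the threshold.

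The difference of the 2 topotecan effects was tested directly as the interaction of drug and genotype over all 12 libraries. It was positive for all 9 members, with a median of 1.48 on the log2 scale beside −0.03 over all genes. Dusp1 (2.44 ± 0.36, adjusted p = 0.00121) and Dusp4 (2.19 ± 0.41, adjusted p = 0.00786) passed the threshold, where 0.398% of all genes were called in this direction. With the replicate block 7 of 9 passed (2.44% of all genes), all but Dusp5 and Spry1.

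Dusp6 (1.59 ± 0.34, adjusted p = 0.0184), Spry2 (1.40 ± 0.31, adjusted p = 0.0252) and Spry4 (1.48 ± 0.37, adjusted p = 0.0561) missed the threshold without the block. The smallest estimates were those of Spry1 (0.34 ± 0.34) and Spred1 (0.65 ± 0.26). The call of Dusp1 held when any one library was left out. That of Dusp4 was lost, leaving 1 member, without WT-Veh replicate 2, WT-Topot replicate 1 or 2, Top1 cKO-Veh replicate 2 or 3, or Top1 cKO-Topot replicate 1 or 3, where 0.201 to 0.511% of all genes were called in this direction.

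Cultures with both deletion and drug were also set against the vehicle-treated WT controls. In Top1 cKO-Topot against WT-Veh cultures 0 of 9 members were called (1.68% of all genes by edgeR), 0 at an unadjusted p of 0.05 (13.5%), 0 with the block (7.37%), 0 by the exact test (2.25%) and 0 by DESeq2 (5.25%). Log2 fold changes lay between −0.35 ± 0.39 (Dusp5) and 0.29 ± 0.27 (Spry1). Dusp1, for example, averaged 39.7 ± 9.77 CPM in Top1 cKO-Topot and 39.9 ± 11.9 CPM in WT-Veh cultures, with a 95% confidence interval of −0.55 to 0.56 for the log2 fold change. This comparison, that of topotecan in WT and that of deletion share the WT-Veh libraries.

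WT-Topot cultures were also compared directly with Top1 cKO-Veh cultures. These groups differ in drug, in virus and in the time since each was given, and these effects cannot be told apart. TOP1 held on DNA was not measured in these libraries. Dusp4 (log2 fold change −1.55 ± 0.26, adjusted p = 0.00163), Dusp5 (−2.23 ± 0.42, adjusted p = 0.00442) and Spry2 (−0.97 ± 0.20, adjusted p = 0.00837) were lower in WT-Topot, 3 of 9 members where 1.23% of all genes were called lower. With the replicate block the count was 8 of 9, all but Spry1 (4.80% of all genes). Dusp1 (−1.08 ± 0.26, adjusted p = 0.0261) and Spry4 (−0.88 ± 0.21, adjusted p = 0.0221) missed the threshold without the block. In 6 of 9 members every WT-Topot library lay below every Top1 cKO-Veh library, as in 12.3% of the 13720 genes. The count of called members fell to 1 (Dusp4) without WT-Topot replicate 3 (0.783% of all genes called lower) or Top1 cKO-Veh replicate 2 (0.724%) and rose to 7 without Top1 cKO-Veh replicate 3 (2.73%).

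Other genes of the pathway were described from lists by role, first for topotecan in WT cultures. Of 28 ERK output genes, which include the transcription factors and targets that ERK activity induces, 9 were lower and 0 higher, with a median log2 fold change of −0.49. Those with the largest changes were the AP-1 factors Fosb (−3.12 ± 0.42) and Fos (−2.86 ± 0.34), the secreted peptide precursor Vgf (−2.93 ± 0.28) and the synaptic pentraxin Nptx2 (−2.83 ± 0.45). Several of these are induced by synaptic activity through routes other than ERK as well. The count ran from 8 to 12 when single libraries were left out.

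The list of receptor tyrosine kinases and ligands had 7 of 27 genes lower and 0 higher (median −0.39), and 8 lower with the block. It holds 3 FGF homologous factors, Fgf12, Fgf13 and Fgf14, which stay inside the cell and are not ligands of these receptors. They were set apart after the values were seen, and 2 of the 3 were lower. Of the other 24 genes 5 were lower, and 6 with the block. The largest changes were those of the neuregulin Nrg3 (−4.51 ± 0.31), its receptor Erbb4 (−4.17 ± 0.63), the neurotrophin Bdnf (−3.38 ± 0.31) and Fgf12 (−2.15 ± 0.21). Bdnf averaged 282 ± 148 CPM in WT-Veh and 26.9 ± 6.96 CPM in WT-Topot cultures.

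Of 30 RAS-ERK cascade genes 2 were lower, the adaptor Gab2 (−1.05 ± 0.22) and the kinase Braf (−0.90 ± 0.20), and 0 higher, with a median of −0.16. With the replicate block these counts were 6 and 4. With WT-Veh replicate 2, WT-Topot replicate 1 or WT-Topot replicate 3 left out the count of lower genes was 0, and it was 4 in the absence of WT-Topot replicate 2 and 6 in that of WT-Veh replicate 3. Of 18 RAS inhibitors and other brakes 2 were lower, the ERK-binding tyrosine phosphatase Ptprr (−1.48 ± 0.22) and the neurofibromin gene Nf1 (−1.21 ± 0.23), with a median of −0.05. With the block the counts were 5 lower and 2 higher. Of 7 further MAP kinase phosphatase and Sprouty family genes, which include Dusp2, Dusp10 and Spred3, 0 were called, and 1 was lower with the block.

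**Figure D4:**
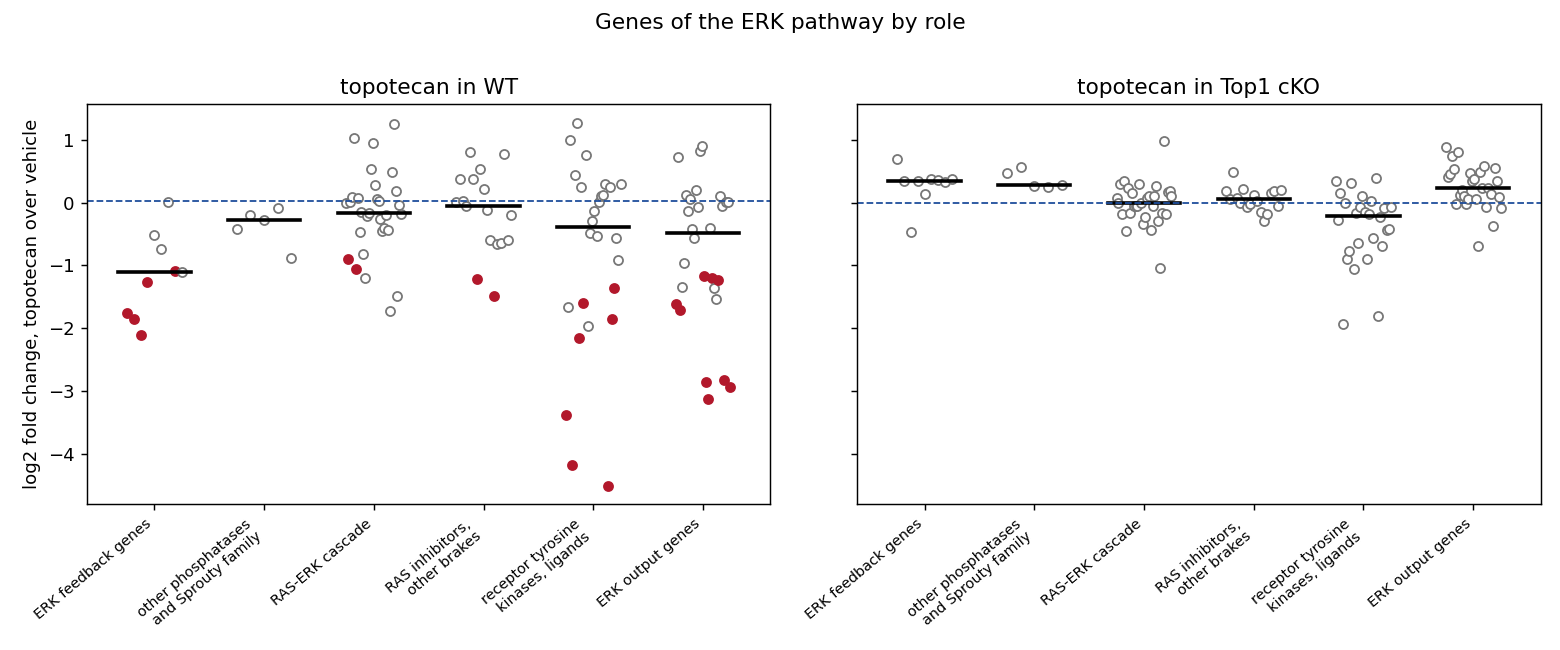
Log2 fold change of topotecan over vehicle (vertical axes) for each gene averaging 1 CPM or more in 6 lists of the ERK pathway (horizontal axes), in WT (left) and Top1 cKO cultures (right). Red points were called at an FDR of 0.01, black bars are list medians and the dashed line is the median of 13720 genes. The feedback genes have the lowest list median in WT cultures (−1.11) and a median of 0.34 in Top1 cKO cultures, where no gene was called in any of the 6 lists.

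In Top1 cKO cultures topotecan gave 0 calls in each of these lists, and the medians were 0.23 for ERK output genes, −0.21 for receptors and ligands and −0.01 for the cascade. With the block 4 output genes were higher, and of the list of receptors and ligands 5 genes were lower and 1 higher, 2 and 1 of these being FGF homologous factors. Nrg3, not called without the block, had a log2 fold change of −1.81 ± 0.25 (adjusted p = 0.0117), and Fgf12 one of −0.76 ± 0.16 (adjusted p = 0.0897). The interaction was called as higher for 5 of the 28 output genes, among them Nptx2 (3.37 ± 0.63), Fos (2.91 ± 0.52), Vgf (2.83 ± 0.39) and Egr1 (2.16 ± 0.39), and for 3 genes of the list of receptors and ligands, Bdnf (3.72 ± 0.43), Nrg3 (2.69 ± 0.41) and Fgf12 (1.38 ± 0.25). With the block these counts were 12 and 5. The count of output genes was 1 without WT-Veh replicate 2 or Top1 cKO-Topot replicate 1, 2 when WT-Topot replicate 3 was left out, and 3 when WT-Topot or Top1 cKO-Veh replicate 2 was.

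Deletion without drug gave 0 calls in the 5 other pathway lists, and with the block 15 lower and 7 higher calls among their 110 genes. In Top1 cKO-Topot against WT-Veh cultures, where no feedback gene was called, 6 of 27 receptors and ligands were lower, led by Erbb4 (−3.31 ± 0.65), Nrg3 (−3.00 ± 0.23), Fgf14 (−1.65 ± 0.27) and Fgf12 (−1.56 ± 0.18), with 1 higher (Fgf13). Of the 24 genes other than the FGF homologous factors 4 were lower, and the count of the whole list ran from 4 to 8 without single libraries. Of 28 output genes 0 were called, but 1 lower and 4 higher with the block, and 0 to 2 lower and 1 to 3 higher when single libraries were left out. Of 30 cascade genes 2 were lower (Gab2 and Nras) and 1 higher (Rasgrp1), and 3 and 3 with the block. The count of lower cascade genes was 0 to 2 without single libraries. Of 18 other brakes 1 was lower (Ptprr), and 1 lower and 1 higher with the block.

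In WT-Topot against Top1 cKO-Veh cultures 15 of the 110 genes of these lists were lower and 1 was higher, and 32 and 7 with the block. The lower genes were 8 output genes (6 to 11 without single libraries), 5 of the list of receptors and ligands (Nrg3, Bdnf, Ntrk2, Ntrk3 and Fgf12), the RAS activator Rasgrp1 (−1.39 ± 0.19) and Nf1 (−1.24 ± 0.22). The ERK1 gene Mapk3 was higher (1.51 ± 0.19, adjusted p = 1.42e-04).

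The span of the members does not place them among long genes. They range from 2.93 kb (Dusp1) to 99.7 kb (Spred2) in the annotation of the mm9 assembly, and no other annotated gene overlaps them. In the comparison of WT-Topot with WT-Veh, 17.8% of 1977 genes over 100 kb were called lower (median log2 fold change −0.42), beside 0.852% of 7866 genes of 10 to 100 kb (median 0.07) and 1.45% of 3370 genes under 10 kb (median 0.11). Dusp1, Dusp6, Spry1 and Spry2 belong to the shortest class, and the other 5 members to the class between. The other lists differed in this. Of receptors and ligands, cascade genes and other brakes, those called lower in that comparison all span over 100 kb except Bdnf (52.4 kb). They reach from 122 kb (Braf) to 1104 kb (Nrg3). The output genes called lower span 1.81 kb (Junb) to 58.4 kb (Etv5). The part of gene length in these calls was not tested.

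Markers of other cell types were examined beside the members. In WT cultures 3 of 10 astrocyte markers fell with topotecan, Gfap (−2.54 ± 0.37), Slc1a3 (−1.52 ± 0.27) and Slc1a2 (−1.39 ± 0.21), and their summed level was 2411 to 4976 CPM in WT-Veh and 1151 to 1965 CPM in WT-Topot libraries. The count was 5 without WT-Veh replicate 3 or WT-Topot replicate 1, and 5 with the block. In Top1 cKO cultures the sum was 2728 to 6296 CPM with vehicle and 1723 to 3218 CPM with topotecan, and all 10 markers had negative estimates (median −0.77), while 8 of 9 feedback genes had positive ones. None of the 10 was called there, and with the block 6 were lower. In WT-Topot against Top1 cKO-Veh cultures 3 of 10 astrocyte markers were lower and 9 had negative estimates (median −1.32). The feedback genes had 8 of 9 negative estimates in that comparison. The part of the astrocyte markers in the fall of the feedback genes was not tested.

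Markers of the remaining types were examined in the same way. Microglia markers summed to 3.5 to 14.9 CPM over all libraries, and endothelial, mural and fibroblast markers to 25.5 to 186 CPM, with Cldn5 at 0 in 3 of the 4 groups. Oligodendrocyte lineage markers summed to 98.5 to 297 CPM, with Mag at 0 in all 4 groups. None of these was called in any comparison by edgeR without the block. With the block the oligodendrocyte lineage factor Olig1 was higher in WT-Topot (adjusted p = 9.62e-08) and in Top1 cKO-Veh (adjusted p = 3.39e-13) than in WT-Veh cultures, and the myelin gene Mbp was lower in WT-Topot than in WT-Veh (adjusted p = 0.00564). Without the block the log2 fold changes of Olig1 were 1.20 ± 0.38 and 1.40 ± 0.43, and that of Mbp was −0.59 ± 0.20. With vehicle Olig1 averaged 25.0 ± 21.1 CPM in WT and 65.3 ± 20.9 CPM in Top1 cKO cultures, and with topotecan 56.9 ± 7.27 and 99.7 ± 65.3 CPM. For oligodendrocyte lineage markers the block also gave 2 higher calls for topotecan in Top1 cKO cultures and 2 in Top1 cKO-Topot against WT-Veh. It gave 1 lower call in WT-Topot against Top1 cKO-Veh. Of the endothelial, mural and fibroblast markers the block gave 1 lower and 1 higher call for topotecan in Top1 cKO cultures, and 1 higher call in Top1 cKO-Topot against WT-Veh. Of 9 proliferation and progenitor markers 1, Nes, was higher in WT-Topot than in WT-Veh (1.22 ± 0.22) and in Top1 cKO-Topot than in WT-Veh cultures (1.77 ± 0.27). With the block 1 marker of this list was also higher with topotecan in Top1 cKO cultures, and 1 in WT-Topot against Top1 cKO-Veh. The 12 neuron markers of the labelled cell type each averaged at least 1 CPM and summed to 5482 to 7452 CPM over all libraries. In WT-Topot against WT-Veh 1 was lower (Rbfox3, −0.96 ± 0.18) and 1 higher (Tbr1, 1.12 ± 0.19), and 5 lower and 4 higher with the block. In WT-Topot against Top1 cKO-Veh 3 were lower (Gad2, Rbfox3 and Snap25), and in Top1 cKO-Topot against WT-Veh 1 was higher (Slc17a6).

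The genes whose profiles over the 12 libraries were nearest to those of the called members, by the root mean square distance of centred log2(CPM + 1) among 13719 genes, included other members. Dusp6 and Spry2 were each the third nearest of the other (distance 0.232, beside SDs of 0.554 and 0.552), and Dusp1 was the third nearest to Dusp4 (0.310). The nearest to Dusp4 was the immediate early gene Egr1 (0.297, beside an SD of 0.824 for Dusp4). The nearest to Dusp5 was the astrocyte marker Slc1a2 (0.242), followed by Cacna1c and Dgkg (0.246 and 0.271). The other nearest genes were Syt12, Cds1 and Sh3kbp1 for Dusp1 (0.220 to 0.257), Pld5 for Dusp4, Hsd17b12 and Hs6st2 for Dusp6 (0.217 and 0.228) and Rasl11a and Ppp1r16b for Spry2 (0.230 and 0.231).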

How the data were processed

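RNA-seq libraries from 12 cultures were analysed, 3 per group, with groups and replicate numbers from the labels. The authors removed artefact reads with TagDust, aligned paired-end reads to mm9 with TopHat, discarded rRNA reads and deposited raw counts over RefSeq exons by gene symbol. The counting program, its strand setting and tool versions are not given in the sources used here. Totals of 1730164 to 4583777 counts per library put 3 counts at 0.687 to 1.73 CPM.

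Counts were scaled by TMM and tested on the 6 libraries of each comparison with edgeR 4.0.16 (R 4.3.3, glmQLFit and glmQLFTest, no gene filter), with Benjamini-Hochberg adjustment over 23893 genes and an FDR of 0.01. The interaction used all 12 libraries. DESeq2 1.42.0, edgeR's exact test, other scalings, a gene filter, a replicate block and leaving out libraries were alternatives. Log2 fold changes carry standard errors, and p-values measure the spread between cultures.

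Deviations from group means correlated at 0.261 to 0.485 between libraries of the same number (18 pairs, 13720 genes) and at −0.384 to −0.0494 between different numbers, so that the numbers pair the cultures by these values. What a number stands for is not given. No pair of libraries within a group was a repeat (dispersion index 6.44 to 10.9, where sampling noise gives a value near 1).

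All 9 members were named in every comparison, and of other lists the called genes with the largest change, at most 4. Of 175 list symbols 174 were in the table. Members and lists were chosen with earlier results of these data known. Upstream windows were matched for 7 members. The test scripts were checked on simulated data.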

Additional observations from a re-analysis of the deposited data

Results flagged for a closer look

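The effect of topotecan differed between Top1 cKO and WT cultures, by the interaction test at an FDR of 0.01, for 2 of the feedback genes and for 8 other genes of the pathway lists. On the log2 scale the effect in Top1 cKO minus that in WT cultures was 2.44 for Dusp1 and 2.19 for Dusp4. Among ERK output genes it was 3.37 for Nptx2, 2.91 for Fos, 2.83 for Vgf, 2.16 for Egr1 and 1.53 for Etv5. In the list of receptors and ligands it was 3.72 for Bdnf, 2.69 for Nrg3 and 1.38 for Fgf12. In each of the 10 genes topotecan lowered the transcript in WT cultures at the same threshold. In Top1 cKO cultures none of the 10 passed without the replicate block, and the log2 fold changes ran from −1.81 (Nrg3) to 0.68 (Dusp1). Nrg3 (adjusted p = 0.0117) and Fgf12 (−0.76, adjusted p = 0.0897) were lower in every topotecan than in every vehicle library of Top1 cKO cultures and were called lower with the block, and Nptx2 (0.55) and Egr1 (0.46) were called higher with it. Groups of 3 libraries are too small for a test of single outlying libraries.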

How the results depend on the processing

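Of the values of single members under the alternatives, 643 kept their direction and their side of the threshold, 32 passed it where the first fit did not, 27 lost it and 35 changed sign, all of these 35 in comparisons where the member was not called. The count of members called lower in WT-Topot against WT-Veh, 5 (2.04% of all genes), became 8 with the replicate block (5.0%). It was 3 with edgeR's filterByExpr (3.25% of the genes kept), and 2 to 7 without single libraries (1.77 to 3.08% of all genes). Dusp1 and Dusp4 passed there under all 13 alternatives. Against Top1 cKO-Veh the count, 3 (1.23% of all genes), became 8 with the block (4.80%), 5 by the exact test (1.79%), 5 by DESeq2 (3.84% of the genes it tested) and 6 at an FDR of 0.05 (2.31%). It was 2, without Spry2, with total count scaling (1.09%), filterByExpr (1.68% of the genes kept) and the fit on all 12 libraries (1.25%). Without single libraries it was 1 to 7 (0.724 to 2.73%). The interaction count, 2 (0.398% of all genes called higher), became 7 with the block (2.44%) and 4 by DESeq2 (2.71% of the genes it tested). It became 1 with filterByExpr (0.477% of the genes kept), 4 at an FDR of 0.05 (0.883%) and 1 to 3 without single libraries (0.201 to 0.515%). For Top1 cKO-Veh against WT-Veh the count of 0 (0.172% of all genes) became 1 with the block (5.56%). The causes were not tested. Total count scaling moved the median of all genes in WT-Topot against WT-Veh from 0.03 to 0.11 (log2) and kept the 5 calls, and the block ended no call.

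The changes of sign under other fits listed next were small. Leaving out single libraries moved estimates further, so the direction was not settled for the members and comparisons named below. Spry1 in WT-Topot against WT-Veh was −0.0093 with the block, −0.019 by DESeq2, −0.018 with RLE size factors, −0.020 with filterByExpr and −0.0021 in the fit on all 12 libraries. Dusp1 in Top1 cKO-Topot against WT-Veh was −0.0041 by DESeq2, −0.0053 with RLE, −0.016 with filterByExpr and −0.013 in the fit on all 12 libraries. Without single libraries, the log2 fold changes for Top1 cKO-Veh against WT-Veh ran from −0.58 to 0.066 (Dusp4), −0.079 to 0.35 (Dusp5), −0.14 to 0.049 (Spry1), −0.22 to 0.11 (Spry2), −0.47 to 0.099 (Spry4), −0.14 to 0.14 (Spred1) and −0.40 to 0.19 (Spred2). For Top1 cKO-Topot against WT-Veh they ran from −0.13 to 0.27 (Dusp1), −0.21 to 0.42 (Dusp4), −0.39 to 0.22 (Dusp6), −0.13 to 0.48 (Spry4) and −0.017 to 0.57 (Spred2). Spred1 ran from −0.0077 to 0.26 with topotecan in Top1 cKO cultures, and Spry1 from −0.11 to 0.060 in WT-Topot against WT-Veh and from −0.040 to 0.14 against Top1 cKO-Veh. With 3 libraries per group and 4 to 9 reads of Dusp5 in WT-Topot libraries, counting error is largest for that gene.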
